A study of Rattus norvegicus with 2 samples.

Results

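The 8 genes Nphs1, Podxl, Synpo, Wt1, Ptpro, Cd2ap, Actn4 and Magi2, which encode proteins of the podocyte, were described in RNA from rat urine, to ask whether RNA of glomerular cells was present there. They were found by rat NCBI gene ID among 16484 entries of the deposited table that carry such an ID, and all 8 were listed. The series held 1 library labelled WT, from sham-operated rats whose ureter was not tied, and 1 library labelled UUO, from rats whose right ureter had been ligated (unilateral ureteral obstruction, a surgical model of renal fibrosis). All rats were Sprague Dawley animals of postnatal day 56 (8 weeks), and kidneys were taken 2 weeks after the operation. Per the study's methods urine came from a catheter in the ureter joined to the kidney, in sham rats as in UUO rats, and what had gathered behind the ligature was left out. The number of rats behind each library is not given in the sources used here. The table heads its columns UrRf and Urc, which were read as UUO and WT from the series title and from the headings of the study's published urine lists, and all directions rest on that reading. With 1 library per group there was no replicate check, and every difference below is one between these 2 libraries.

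The podocyte is the epithelial cell that wraps the capillaries of the glomerulus. Its foot processes are bridged by the slit diaphragm, in which nephrin is the main protein, and are held in shape by an actin cytoskeleton. Podocytes that detach pass into the urine, and messenger RNA of podocyte genes in urine sediment is a known readout of podocyte loss in glomerular disease. In this study urine was centrifuged before RNA extraction, and the methods do not say that the sediment was used. Some of the 8 genes are not particular to the podocyte: Actn4 and Cd2ap are active in most cell types, Podxl is also made by endothelium, and Synpo, Ptpro and Magi2 are also active in brain.

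RNA of nephrin, the most podocyte-restricted of these genes, was measured in both libraries, on few fragments in WT urine and 4.04 times higher in UUO urine. Synpo was 2.96 times and Podxl 3.85 times higher in UUO urine, Podxl from a WT level on few fragments and below the detection limit. As deposited, Actn4, Cd2ap and Wt1 were 2.71, 2.07 and 2.85 times higher in WT urine, differences that were within 2-fold after rescaling.

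Levels are FPKM, the fragments of a transcript per kilobase of its length, scaled to how many fragments the library mapped, so they can be compared between genes. Detection was set at 1 FPKM or more. This limit was reached by 6 of the 8 genes in WT urine and by 7 in UUO urine. Over all 16484 entries it was reached by 7793 in WT and by 9278 in UUO urine. The podocyte genes spanned a wide range, from 0 to 150.1 in WT and from 0.527 to 55.4 in UUO urine. Actn4 and Cd2ap together held 90.7% of the summed FPKM of the 8 genes in WT urine and 62.8% in UUO urine.

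**Figure D1:**
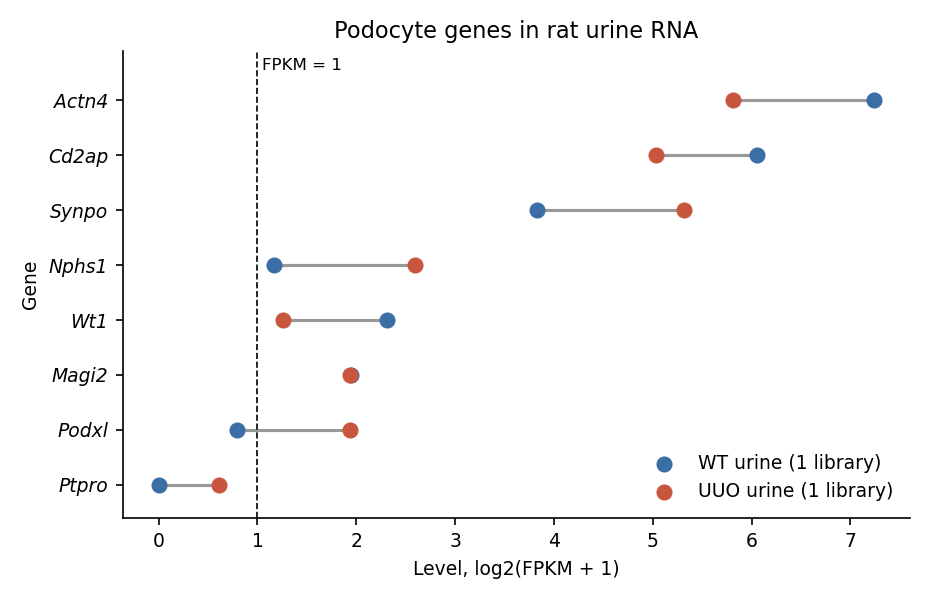
Level of each podocyte gene on the log2(FPKM + 1) axis, 1 point per library, joined by a line, with a dashed line at FPKM of 1. Synpo, Nphs1, Podxl and Ptpro lie further right in UUO urine, Actn4, Cd2ap and Wt1 in WT urine, and the points of Magi2 coincide.

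Nephrin, an adaptor and a scaffold stand for the slit diaphragm. Nphs1 encodes nephrin, which forms the bridge between foot processes. Nphs1 (chromosome 1, 90077823 to 90106425) was measured at 1.25 FPKM in WT and at 5.04 FPKM in UUO urine. It was thus detected in both libraries, with a difference of 1.43 on the log2(FPKM + 1) scale. The added 1 makes differences of low genes smaller than their plain ratios, and the WT value of Nphs1 rests on few fragments. Cd2ap encodes an adaptor that ties nephrin to the actin skeleton. Cd2ap (chromosome 9, 19629159 to 19724459) was measured at 65.5 FPKM in WT and at 31.7 FPKM in UUO urine, a log2 difference of -1.03. Magi2 encodes a scaffold protein that binds nephrin. Magi2 (chromosome 4, 10987133 to 12483875) was measured at 2.87 FPKM in WT and at 2.83 FPKM in UUO urine, the closest pair of values of the 8 genes.

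The apical membrane of the podocyte carries podocalyxin, the negatively charged coat protein encoded by Podxl, and the receptor tyrosine phosphatase GLEPP1, encoded by Ptpro. Podxl (chromosome 4, 58581204 to 58645711) was measured at 0.733 FPKM in WT and at 2.82 FPKM in UUO urine, and passed the detection limit in UUO urine alone. The log2 difference of Podxl was 1.14. Ptpro (chromosome 4, 235508201 to 235718672) stood at 0 in the WT library and at 0.527 in the UUO library, below the limit in both libraries.

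The 2 members of the actin cytoskeleton differed in opposite directions. Synpo encodes synaptopodin, an actin-associated protein of foot processes. Synpo (chromosome 18, 55098402 to 55149914) was measured at 13.2 FPKM in WT and at 39.0 FPKM in UUO urine. The log2 difference of Synpo was 1.496. Actn4 encodes alpha-actinin-4, which crosslinks actin filaments. Actn4 (chromosome 1, 88246903 to 88327929) was measured at 150.1 FPKM in WT and at 55.4 FPKM in UUO urine. Its log2 difference was -1.42. Wt1 encodes the transcription factor that adult podocytes keep after kidney development. Wt1 (chromosome 3, 101756492 to 101802601) was measured at 3.96 FPKM in WT and at 1.39 FPKM in UUO urine, a log2 difference of -1.05. Coordinates are those of the deposited table, whose build the submitters' processing notes give as rn5.

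For the 3 genes that were higher in UUO urine, the 250 bases before the annotated start are shown, because Wt1 is itself a member and a regulator of nephrin and podocalyxin in podocytes, and its zinc fingers bind GC-rich sites. They are RefSeq sequences of the GRCr8 build, read 5′ to 3′ on the strand of the gene: chr1:94848011-94848260 (plus) for Nphs1, chr4:61149132-61149381 (minus) for Podxl and chr18:56347360-56347609 (minus) for Synpo. Capitals mark GGGCGG, the GC box, on either strand.
Nphs1: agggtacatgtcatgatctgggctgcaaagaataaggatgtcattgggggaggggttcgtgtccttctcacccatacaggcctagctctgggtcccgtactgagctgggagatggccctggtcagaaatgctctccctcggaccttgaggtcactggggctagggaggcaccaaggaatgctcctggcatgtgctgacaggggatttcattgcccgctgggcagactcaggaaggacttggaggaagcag
Podxl: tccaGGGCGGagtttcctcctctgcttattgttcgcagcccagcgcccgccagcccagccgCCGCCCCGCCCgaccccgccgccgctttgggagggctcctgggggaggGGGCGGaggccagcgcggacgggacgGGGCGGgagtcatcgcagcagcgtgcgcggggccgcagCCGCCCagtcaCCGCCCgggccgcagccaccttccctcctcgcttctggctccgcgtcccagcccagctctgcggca
Synpo: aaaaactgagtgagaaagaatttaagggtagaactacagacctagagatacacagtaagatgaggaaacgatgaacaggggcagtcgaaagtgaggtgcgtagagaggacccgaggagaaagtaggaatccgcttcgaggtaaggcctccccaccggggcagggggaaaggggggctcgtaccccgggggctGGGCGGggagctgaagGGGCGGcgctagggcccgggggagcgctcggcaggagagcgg

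The window of Podxl held 7 GC boxes, 2 of which overlap by 1 base, that of Synpo held 2 and that of Nphs1 held 0. Among 33469 annotated promoter windows of this length, 30.5% held the motif. GCGGGGGCG, a site bound by EGR1 and WT1, was searched on both strands too and was in none of the 3 windows, against 2.45% of all windows. GCGTGGG, the start of a related site, was also in none of them, against 3.68% of all. Of the 7 podocyte genes with a promoter in the RefSeq table, Cd2ap held GCGGGGGCG 1 time and Magi2 GCGTGGG 1 time. The share of G and C was 57.2% for Nphs1, 76.4% for Podxl and 60.4% for Synpo, with a median of 51.2% over all windows. Such matches describe letters only, and binding was not measured.

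Of the 7 genes detected in either library, 3 were at least 2-fold higher in UUO urine (Nphs1, Podxl and Synpo), 3 were at least 2-fold lower (Cd2ap, Actn4 and Wt1) and Magi2 was neither. Among all 9853 gene IDs detected in either library, 25.7% were higher and 36.5% lower by the same limit. With 7 genes, 3 in each direction do not set the podocyte genes apart from the rest. The median log2 difference was -0.01 over the 7 genes and -0.51 over the 9853. The count of lower genes depended on scaling. As deposited, gene IDs that passed the limit in both libraries had a median log2 difference of -0.81. Once the UUO values were rescaled to equal sums, by the median ratio or to the same 75th percentile, 3 of the podocyte genes were higher and 0 were lower. By the median ratio 39.8% of all gene IDs were then higher and 15.6% lower, so the background moved in the same way. Nphs1, Podxl and Synpo had greater differences under these 3 rescalings, up to 2.20, 1.85 and 2.37. Actn4 moved to -0.54, Wt1 to -0.47 and Cd2ap to -0.15 by the median ratio, none past the 2-fold limit.

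**Figure D2:**
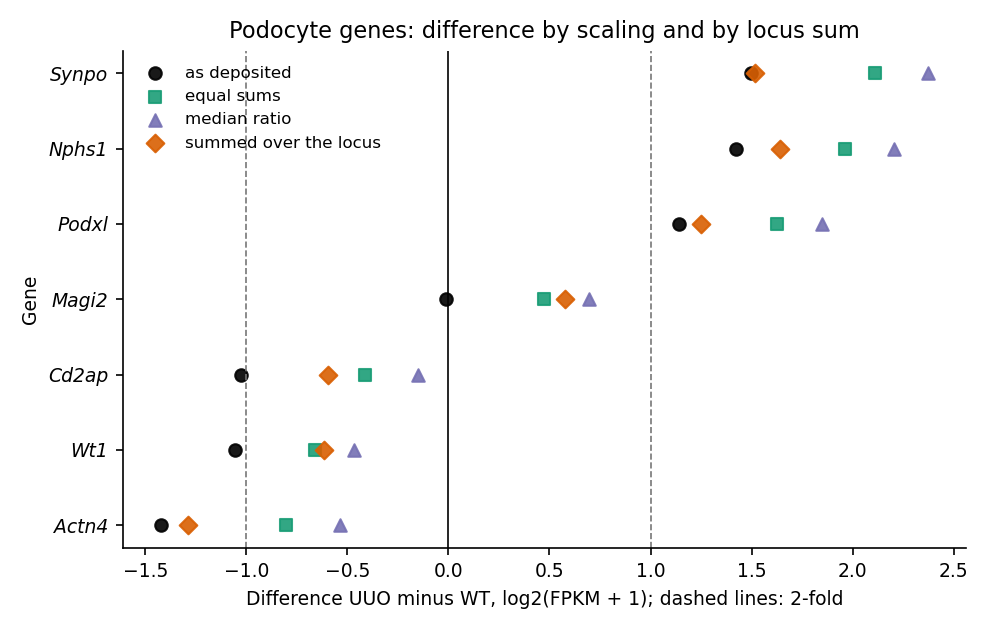
Difference of each podocyte gene (UUO minus WT) on the log2(FPKM + 1) axis, with dashed lines at 2-fold, as deposited, after 2 rescalings of UUO values, and with FPKM summed over all entries of the locus. Synpo, Nphs1 and Podxl lie beyond the upper line under each, Actn4, Wt1 and Cd2ap move inside the lower line by both rescalings, and Ptpro is left out because it is listed at 0 in WT urine.

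Ratios between genes of 1 library do not depend on how that library was scaled. Nphs1 stood at 0.832% of the level of Actn4 in WT and at 9.10% in UUO urine, a ratio 10.9 times higher in UUO urine. Podxl stood at 0.489% and 5.09% of Actn4, and Synpo at 8.78% and 70.4%. Wt1 kept nearly the same ratio to Actn4, 2.64% in WT and 2.51% in UUO urine, and Cd2ap stood at 43.7% and 57.2%. So the ratios of Nphs1, Podxl and Synpo to Actn4 differed more between the libraries than those of Cd2ap and Wt1. These groups were set by the direction of the same values, so their parting is a description and not a separate result. In rank among the 16484 entries Synpo stood at place 4366 in WT and at place 843 in UUO urine, and Nphs1 at 7732 and 5837. Wt1 stood at 6807 and 8768, while Actn4 (374 and 513) and Cd2ap (1037 and 1101) held high places in both. Entries above 0 numbered 8024 in WT and 12008 in UUO urine. Places of low genes such as Nphs1 and Wt1 are therefore not comparable between the libraries, and no direction was read from them.

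Against genes of the tubule and urothelium the position of nephrin RNA also differed between the libraries. Lrp2 encodes megalin, the endocytic receptor of the proximal tubule. Nphs1 was at 3.23% of the level of Lrp2 in WT and at 84.0% in UUO urine, where Lrp2 itself was lower (38.7 in WT, 5.995 in UUO). Against Slc34a1, the phosphate transporter of the same segment, Nphs1 was at 3.81% and 80.7%. Against Umod, the uromodulin gene of the thick ascending limb, it was at 4.15% and 19.2%. Against Aqp2, the water channel of the collecting duct, it was at 2.48% and 14.4%. Against Upk3a, a uroplakin of the urothelial surface, it was at 0.400% and 1.08%. These 5 genes are examples from lists that do not all rank alike against Nphs1. In WT urine 1 of 8 proximal tubule genes, 1 of 8 genes of the loop, distal tubule and collecting duct and 1 of 9 urothelial genes were below Nphs1, each listed at 0. In UUO urine 5, 2 and 0 genes of these lists were below it. Over the genes above 0 in both libraries, the ratio of Nphs1 was higher in UUO urine for 7 of 7, 7 of 7 and 7 of 8. The exception was Tp63, a transcription factor of basal urothelium, to which Nphs1 stood at 64.9% in WT and 33.7% in UUO urine. All these ratios use the same 2 values of Nphs1, the WT one on few fragments. They rise for any gene that was not itself more than 4.04 times higher in UUO urine. The counts thus repeat 1 difference and are not separate results.

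**Figure D3:**
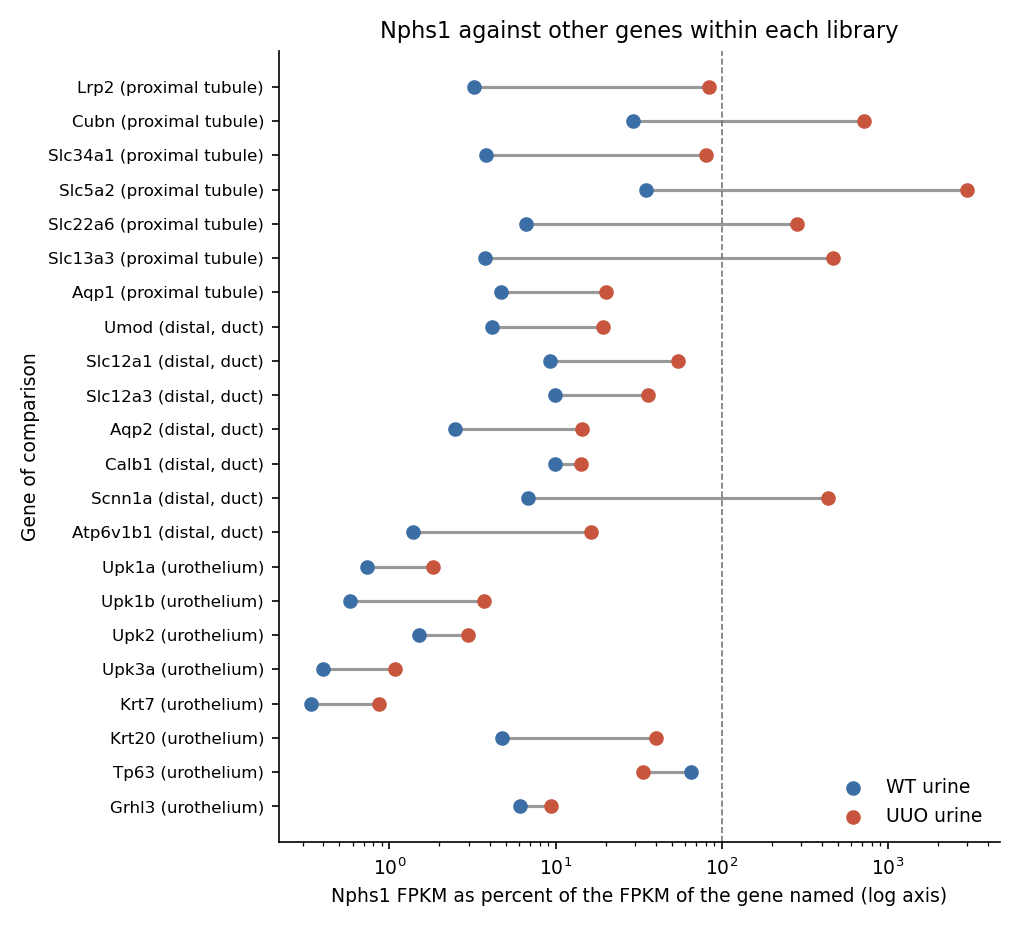
FPKM of Nphs1 as a percent of the FPKM of each tubule or urothelial gene that was above 0 in both libraries, on a log axis, 1 point per library, with a dashed line where the levels are equal. The UUO point lies right of the WT point for each gene except Tp63, by 1.42 times for Calb1 and by 124.9 times for Slc13a3, and passes the dashed line for Cubn, Slc5a2, Slc22a6, Slc13a3 and Scnn1a.

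How low an FPKM still speaks for a gene was examined with 963 olfactory, vomeronasal and taste receptor genes, which belong to sensory tissue. In WT urine 3 of them (0.312%) were above 0, all 3 past the detection limit and the highest at 7.003. In UUO urine 407 (42.3%) were above 0 and 58 (6.02%) were detected, with a 95th percentile of 1.06 and a highest value of 3.23. The UUO library thus carried a low signal at genes of this kind that the WT library did not show. Of 61 receptor genes detected in either library, 58 passed the limit in UUO urine alone, each at 0 in WT urine, and 3 in WT urine alone. A gene at 0 in WT urine that reaches 1 FPKM in UUO urine is at least 2-fold higher by arithmetic. The direction of these 58 genes was thus set by the detection limit and is not a result. Nphs1 at 5.04 was above all 963 receptor genes in UUO urine. In WT urine, at 1.25, it was below all 3 receptor genes that were above 0. Synpo, Actn4 and Cd2ap were above all of them in both libraries. In UUO urine 1 receptor gene reached the level of Podxl and 1 that of Magi2. The level of Wt1 in UUO urine was reached by 20 receptor genes (2.08%) and that of Ptpro by 194 (20.1%). Ptpro thus lay within the range of these receptor genes, and no difference was read against its 0 in WT urine. In WT urine 3 receptor genes reached the level of Podxl and 1 reached those of Magi2 and Wt1.

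**Figure D4:**
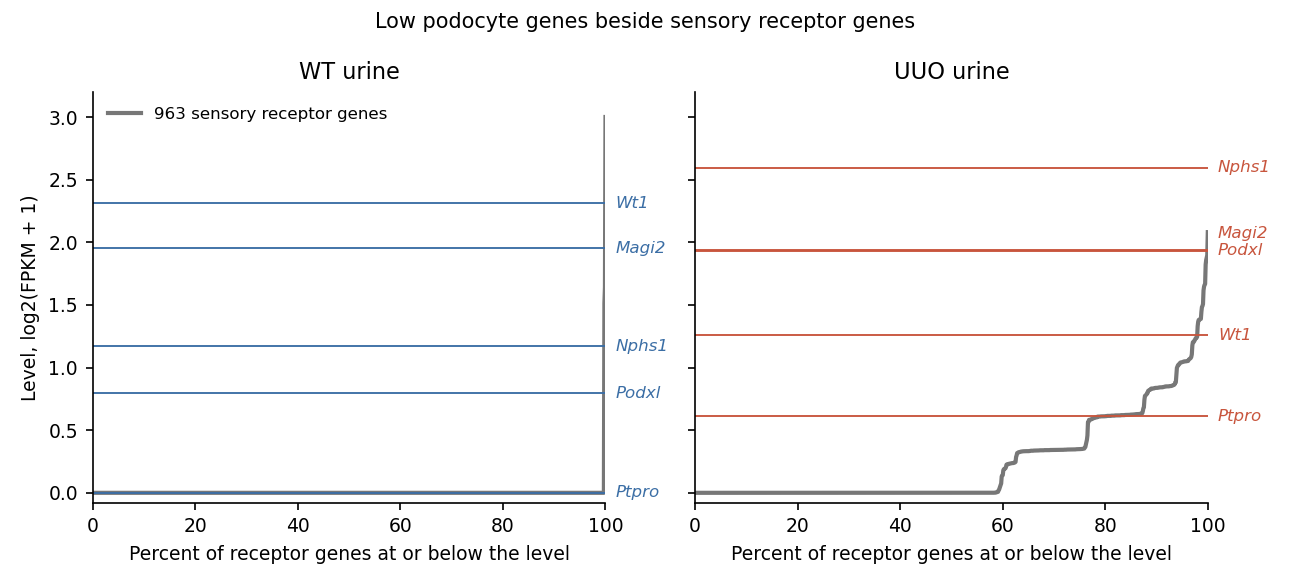
Level on the log2(FPKM + 1) axis of the lower podocyte genes (horizontal lines) beside the sorted levels of 963 sensory receptor genes (grey curve), with the percent of receptor genes at or below each level on the other axis. In UUO urine the curve leaves 0 for 42.3% of the receptor genes and reaches Ptpro and Wt1, while Nphs1 lies above all of it. In WT urine the curve leaves 0 for 0.312%.

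The other entries at the loci of the 8 genes, most of them named as rat noncoding RNAs (NONRATT and NONRATG), gave a like picture. Of 61 such entries 12 (19.7%) were above 0 in WT and 43 (70.5%) in UUO urine, close to the 20.2% and 70.2% of all 96527 entries without a gene ID. Reads of a locus are divided among such entries. The entry of Nphs1 held 83.8% of the summed FPKM of its locus in UUO urine and all of it in WT urine, that of Podxl 90.3% and all, and that of Synpo 92.6% and 93.7%. For these genes the sum over the locus left the difference nearly as it was (1.64, 1.25 and 1.52). The entry of Wt1 held 62.0% of its locus in UUO urine and that of Cd2ap 60.9%, and summed over the locus their log2 differences were -0.62 and -0.60, within the 2-fold limit. At Magi2, the longest of the 8 loci, 11 of 21 other entries were above 0 in UUO urine and 1 in WT urine.

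Depth was known only through steps in the FPKM values, since the table used here holds no counts. By these steps 1 fragment per kilobase of effective length was worth 0.473 FPKM in the WT library and 0.410 FPKM in the UUO library. Nphs1 then had 2.64 fragments per kilobase in WT and 12.3 in UUO urine, and Podxl 1.55 and 6.89. Wt1 had 8.38 and 3.39, and Magi2 6.07 and 6.90. Synpo had 27.9 and 95.2, Cd2ap 138.6 and 77.3, and Actn4 317.5 and 135.2. The authors' table marks 4 of the 8 genes (Nphs1, Synpo, Actn4 and Cd2ap) as holding enough alignments to be tested, against 45.6% of all gene IDs. Values of a few fragments, as for Nphs1 and Podxl in WT urine, are uncertain by counting alone. Zeros are not proof of absence either, since Hprt1, which every cell uses, was at 0 in each library. The Gapdh entry, listed on chromosome 16 with a span of 1291 bp, was at 0.406 in WT and 0.367 in UUO urine. Whether that entry holds all reads of Gapdh was not tested.

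Other podocyte genes gave no single direction. Of 16 genes chosen as podocyte genes in the kidney, 13 were listed (Lmx1b, Npnt and Rhpn1 were not analysed here), and each library held 6 above the detection limit. Other kidney cells may express some of them, and the source of their RNA was not tested. The transcription factor gene Tcf21 and the channel gene Trpc6 were listed at 0 in both libraries. Of the 7 genes detected in either library, 4 were at least 2-fold lower in UUO urine, 1 was higher and 2 were neither. This direction turned with scaling: by the median ratio 9 genes passed the limit, 5 were higher and 3 lower. Cdkn1c, the cell cycle inhibitor p57, was at 9.42 FPKM in WT and 1.60 FPKM in UUO urine, and Thsd7a, a foot process antigen, at 3.002 and 0.102. Plce1, a phospholipase of podocytes, was at 15.7 and 19.7, and Clic5, a foot process protein, at 2.75 and 3.98. The basement membrane collagen Col4a3 was at 11.4 and 1.18, whereas Col4a4, its partner chain, stood at 0 in the WT library and at 3.66 in the UUO library. Cdkn1c, Col4a3 and Thsd7a were thus among the lower genes of the list. Col4a4 was the higher one, a call fixed by its 0 in WT urine once it passed the limit.

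Partners of podocyte proteins that most cells express reached higher levels. Of 26 genes 23 were listed (Itga3, Col4a5 and Inf2 were not analysed here), 20 were detected in either library, 8 were at least 2-fold lower and 2 higher in UUO urine, with a median log2 difference of -0.91. By the median ratio 5 were lower and 6 higher, with a median of -0.05. Nherf1 and Ezr, which anchor podocalyxin to actin, were among the highest. Nherf1 was measured at 1235 FPKM in WT and at 203.9 FPKM in UUO urine, and Ezr at 726 and 165, both lower in UUO urine, while Podxl itself was higher. Nherf2, the form of the anchor found in podocytes, was at 55.5 and 24.7. Nck1 and Nck2 encode adaptors of phosphorylated nephrin. Nck1 was at 28.9 in WT and 4.52 in UUO urine, and Nck2 at 15.6 and 17.4. Itgb1, the integrin beta chain that holds foot processes to the basement membrane, was at 6.58 and 27.6, and Dag1, a matrix receptor of the podocyte base, at 6.56 and 14.4. Kirrel1, Myh9 and Cd151 were listed at 0 in both libraries.

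Alpha-actinins are similar in sequence, so reads of 1 could be counted for another. Actn1, the other non-muscle form, was measured at 26.7 FPKM in WT and at 8.89 FPKM in UUO urine, lower in UUO urine like Actn4, and like it within 2-fold (log2 difference -0.66) by the median ratio. Actn1 was at 17.8% of Actn4 in WT and at 16.1% in UUO urine. The muscle forms Actn2 and Actn3 were listed at 0 in both libraries.

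Most markers of the other glomerular cells were below the detection limit, but some that passed it were above Nphs1. Of 9 mesangial genes 3 were detected in each library: Gata3 (28.5 in WT, 18.99 in UUO), Des (6.06 and 14.0) and Pdgfra (2.66 and 1.48). Gata3 is also made by urothelium and collecting duct, and Des by smooth muscle. The angiotensin receptor gene Agtr1a and Thy1, a surface marker of rat mesangium, were listed at 0 in both. Of 10 genes of glomerular endothelium the WT library held 2 and the UUO library 3 past the limit, and the endothelial genes Emcn, Cdh5, Tek and Plvap were listed at 0 in both. The tissue plasminogen activator gene Plat was at 0 in WT and 13.6 in UUO urine, Ehd3 at 5.25 and 2.65, and Pecam1 at 0 and 1.07. The summed FPKM of the 10 genes was 6.79 in WT and 18.4 in UUO urine. Without Plat the sums were 6.79 and 4.80, the other direction. This stands beside the difference of Podxl, which endothelium also expresses, and its part in that difference was not tested. Of 4 genes listed for parietal epithelium, Pax8 was detected in both libraries (18.6 and 16.8), a gene that tubules also express.

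By their medians, genes of cells that line the urinary tract were above the podocyte genes, except those of the proximal tubule in UUO urine. Of 9 urothelial genes 8 reached the limit in WT and 9 in UUO urine, led by Krt7 (368 in WT, 579 in UUO) and Upk3a (312 and 466). The 8 proximal tubule genes had a median level of 22.8 FPKM in WT and 2.74 FPKM in UUO urine, and 6 of them were at least 2-fold lower in UUO urine under each scaling. The 8 genes of the loop, distal tubule and collecting duct had medians of 15.9 and 20.1. The medians of the 8 podocyte genes were 3.41 and 3.93. Leukocyte genes differed most in presence, since 2 of 8 passed the limit in WT and 7 in UUO urine, with S100a9 at 0 and 71.7 and a summed FPKM of 9.61 and 140.2. Ptpro is also expressed by myeloid cells, and the part of such cells in its value was not tested. Of 8 neuronal genes, set beside Synpo, Ptpro and Magi2, 1 was detected in each library (Grin1 at 1.79 in WT, Syt1 at 1.27 in UUO). Of 6 striated muscle genes and of 5 retina and testis genes 0 were detected in either library, and the highest of them was at 0.963 in UUO urine. In RNA from a mixed fluid, fewer cells of a type and less RNA per cell cannot be told apart.

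**Figure D5:**
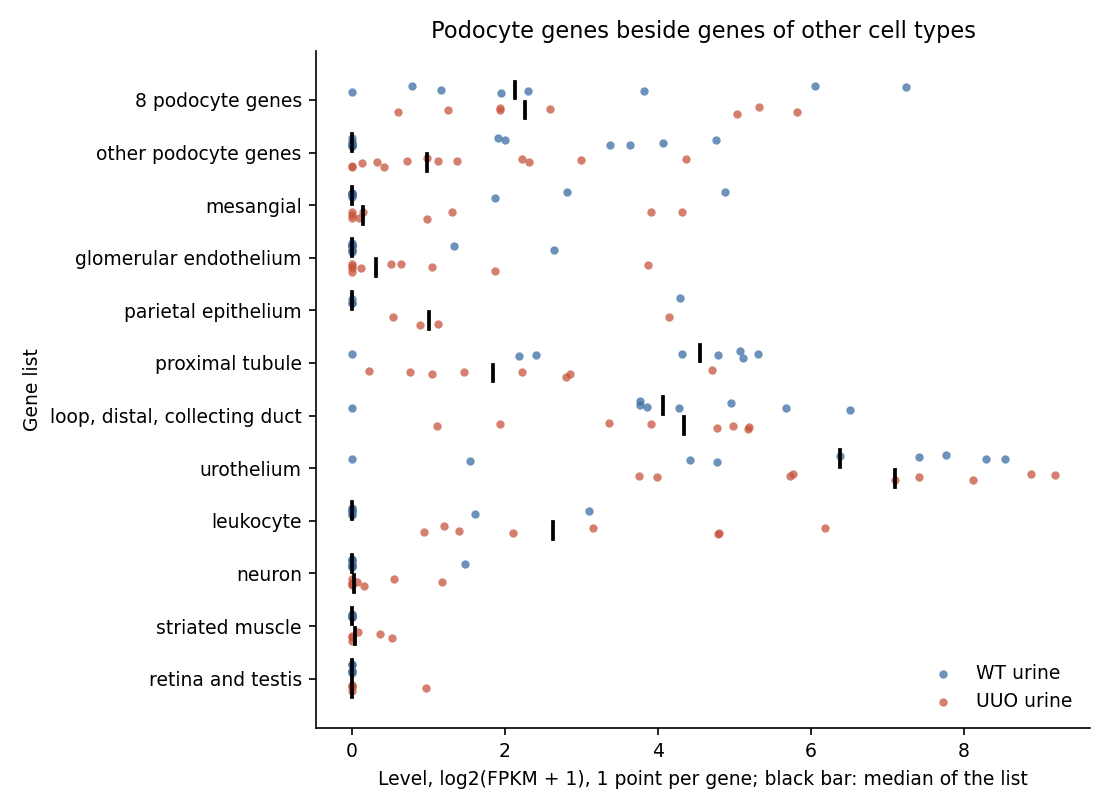
Levels on the log2(FPKM + 1) axis of the podocyte genes and of 11 lists of other genes, 1 point per gene and library, with a black bar at the median of each list. Urothelial genes lie furthest right by their medians, proximal tubule genes lie right of the podocyte median in WT urine and left of it in UUO urine, the podocyte genes spread over most of the axis, and the neuronal, muscle, retina and testis genes lie at the left in both libraries.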

How the data were processed

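RNA of 1 WT and 1 UUO urine library was sequenced. Per the submitters' processing notes the authors aligned read pairs with TopHat2 2.0.9 (Bowtie2 2.0.6), assembled transcripts with Cufflinks 2.1.1 and compared libraries with Cuffdiff 2.1.1 on rn5. Urine was centrifuged, and its RNA was extracted with Trizol per the labels or with a column kit per the methods. The authors deposited 1 FPKM value per entry and library, and which total scaled it is not stated. Of all entries 94.5% shared their locus with another, so FPKM of overlapping genes and near-identical copies is uncertain. Columns of the authors' fold changes, test statistics and p-values were not used.

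RefSeq symbols (GRCr8) matched 16329 of 16484 gene IDs (99.1%). Genes were compared as log2(FPKM + 1) in Python 3.11.15 with pandas 2.3.3. With 1 library per group no test was made. Genes were filtered at FPKM of at least 1 in either library and counted at 2-fold. Fragment steps came from assembled features alone at their locus and 400 to 1200 bp long. A total of 2116000 fragments made 93.5% of 186 WT values whole within 0.1, and 2441000 made 99.5% of 3530 UUO values whole. The fit was tested on simulated data. Alternatives were pseudocounts, limits, 3 rescalings, locus sums and the members without Actn4 and Cd2ap.

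The genes and lists were chosen with earlier results of these data known. The text may name the 8 genes, list genes with FPKM of at least 1 (at most 4 per other cell type) and defining markers at 0. Gapdh was chosen after its values were seen. Nphs1 was compared with all genes of the tubule and urothelium lists after their values were seen. Olr1, the oxidised LDL receptor gene, was removed from the sensory receptor genes. Some genes of the lists are counted but not reported here by name.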

Additional observations from a re-analysis of the deposited data

How the results depend on the processing

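No paired analysis was possible because WT and UUO urine gave 1 library apiece. With the detection limit at 5 FPKM, 3 of the 8 podocyte genes passed in WT and 4 in UUO urine. With a pseudocount of 10, 1 gene was higher and 1 lower in UUO urine, and with a 4-fold limit 0 and 0. Lower genes numbered 0 when UUO values were brought to the same sum, median ratio or 75th percentile, and 1 with FPKM summed over the locus. By locus sums 4 genes were higher, Ptpro among them, and 8 were detected in UUO urine. The locus sum of Ptpro was 0 in WT and 1.21 in UUO urine, of which its own entry held 43.4%. Its call as higher followed from passing the limit, and no difference was read from it. Without Actn4 and Cd2ap 1 gene was lower, the median log2 difference was 1.14, and the 6 genes summed to 22.0 in WT and 51.6 FPKM in UUO urine. With them the sum was 237.6 and 138.7, and its UUO part was 213.9, 257.8 and 247.9 after the 3 rescalings, which raise every UUO value by 1 factor. Nphs1, Podxl, Synpo, Wt1, Cd2ap and Actn4 kept their direction under all 6 alternatives tried for each, and Magi2, near 0, kept it under 2 of 6. A pseudocount cannot turn a direction, and the 3 rescalings cannot turn a gene that was higher in UUO urine. For Nphs1, Podxl and Synpo only the locus sum could have done so, and the count is no check on them. Few fragments limit Nphs1 and Podxl in WT urine and Ptpro in both, and values at 0 were not read as absence.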

Other observations

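Nphs1 and Kirrel2, which encodes a protein of the nephrin family, are neighbours, with 2141 bp between their listed loci. Kirrel2 was listed at 0 in WT and at 0.257 in UUO urine, a level that 350 of the 963 sensory receptor genes (36.3%) reached in UUO urine, while Nphs1 was above all of them. Kirrel2 was chosen after its values were seen.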
